A study of Mus musculus with 90 samples.

Results

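The 64 mouse genes described here encode the subunits of 7 families of neurotransmitter receptors. They were chosen by gene symbol alone, from 24984 genes in the count table of a neural differentiation series and 24961 genes in that of an embryoid body series. The names covered 19 subunits of GABA-A receptors, 16 of nicotinic acetylcholine receptors, 8 metabotropic glutamate receptors, 7 NMDA, 5 kainate and 4 AMPA receptor subunits, and 5 of glycine receptors. The naming rule used no expression value. After the filter on low counts, 52 of the 64 were tested in the neural series and 54 in the embryoid series, and 8 were tested in neither (Chrnb3, Gabra6, Gabrd, Gabrr2, Gabrr3, Glra3, Grm3 and Grm7).

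The libraries came from J1 mouse embryonic stem cells with altered CBX7, which is part of the Polycomb repressive complex PRC1. WT has unaltered CBX7. CBX7-CaPS holds a compaction and phase separation domain taken from CBX2, a related protein, CBX7-mCaPS holds a mutated form of that domain, the line labelled KO was made to lack CBX7, and a further line is named only CBX7-CaPS-R. All stem cells were kept with LIF on mouse embryonic fibroblast feeders, which were removed before differentiation. In the neural series (days 0, 6 and 8) cells were aggregated for 4 days and then given 5 uM retinoic acid. In the embryoid series (days 0, 6 and 10) embryoid bodies were formed in hanging drops and moved to suspension after day 4. Total RNA was depleted of ribosomal RNA, and 3 libraries were sequenced for every line, series and day, which makes 30 groups and 90 libraries. The labels do not say whether the 3 libraries of a group came from separate cultures, so the spread behind each p-value may be technical. They also do not say whether a line is 1 clone.

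AMPA, kainate and NMDA receptors are cation channels opened by glutamate, each built from 4 subunits. GABA-A, glycine and nicotinic receptors are pentamers of the Cys-loop family: GABA and glycine receptors pass chloride, and nicotinic receptors pass cations when acetylcholine binds. Metabotropic glutamate receptors act through G proteins. Which subunits a neuron makes sets the transmitter it answers to, the ions that pass and how fast the channel closes.

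Library totals were 11830340 to 59295504 counts in the neural series and 10601858 to 55886291 in the embryoid series, and Rn45s, the ribosomal RNA precursor, took 4.24% to 50.3% and 2.73% to 88.7% of them. The 18 CaPS-R libraries had 11043361 to 109979089 counts over the genes shared with the other tables, with 25.0% to 80.5% from Rn45s. Among counts of 1 to 20, most were even numbers in all but 6 libraries, so a difference of a few counts can stand for fewer fragments. The same holds for the floor of 3 counts used below for groups at 0, so folds given as at least may be too large. The 6 exceptions, the WT and CaPS embryoid libraries numbered 1, stood apart, with 42.1% to 43.5% even numbers against 73.5% to 94.1% elsewhere in the WT, CaPS, mCaPS and KO embryoid libraries. Counts of Cbx7 did not check the KO label, since the deleted part of the gene is not given in the sources used here. Cbx7 stood at 112, 137 and 120 CPM (counts-per-million after TMM scaling) in the 3 neural day 0 libraries labelled KO and at 191, 157 and 162 CPM in WT, a log2 difference of -0.47 ± 0.32 (SE, edgeR adjusted p = 0.413). In WT, the summed CPM of 14 neuron markers (Tubb3, Dcx, Snap25 and others) was 576, 351 and 399 on neural day 0, 203, 103 and 104 on day 6 and 2440, 1360 and 1230 on day 8, and the 10 pluripotency markers summed to between 3120 and 3380 on day 0 and between 19.2 and 60.3 on day 8. In bulk RNA, fewer cells of a type and less RNA per cell cannot be told apart.

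Several members lie next to each other in the genome. By the coordinates in the tables, which are of mm10, Chrna5, Chrna3 and Chrnb4 lie within 67.7 kb on chromosome 9 (chr9:54980880-55048544), Chrna5 on the plus strand and the other two on the minus strand. These encode the alpha5, alpha3 and beta4 nicotinic subunits, which assemble into the receptor of autonomic ganglia. GABA-A genes are clustered too, among them Gabra6 and Gabrb2 on chromosome 11, Gabrg1, Gabra2, Gabra4 and Gabrb1 on chromosome 5, Gabrg3 and Gabra5 on chromosome 7, and Gabre, Gabra3 and Gabrq on X. Gria2 and Glrb are neighbours on chromosome 3 (chr3:80681450-80913660).

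The 250 bases before the start of these genes are shown for the chromosome 9 cluster, whose 3 genes were called together in the neural series, and for Grin2c, which moved against most called members in the mCaPS line. They are from RefSeq (GRCm38.p6), on the strand of the gene, and capitals mark the searched letters AGGTCA (the core site of nuclear receptors such as the retinoic acid receptors) or CAGCTG (an E-box, bound by basic helix-loop-helix factors), where present on either strand. RefSeq lists 2 starts for Chrna5.
Chrna5, first start, chr9:54980630-54980879, plus strand: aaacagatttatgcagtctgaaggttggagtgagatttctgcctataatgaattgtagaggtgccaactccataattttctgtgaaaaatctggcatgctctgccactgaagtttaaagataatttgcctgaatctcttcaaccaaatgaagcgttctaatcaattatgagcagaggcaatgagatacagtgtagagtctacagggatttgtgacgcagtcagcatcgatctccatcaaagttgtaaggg
Chrna5, second start, chr9:54981238-54981487, plus strand: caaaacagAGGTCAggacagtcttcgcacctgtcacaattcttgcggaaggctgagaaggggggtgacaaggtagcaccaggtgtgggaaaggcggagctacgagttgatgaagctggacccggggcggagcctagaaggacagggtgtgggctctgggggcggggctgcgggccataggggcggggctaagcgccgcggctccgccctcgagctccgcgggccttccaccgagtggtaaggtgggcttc
Chrna3, chr9:55026563-55026812, minus strand: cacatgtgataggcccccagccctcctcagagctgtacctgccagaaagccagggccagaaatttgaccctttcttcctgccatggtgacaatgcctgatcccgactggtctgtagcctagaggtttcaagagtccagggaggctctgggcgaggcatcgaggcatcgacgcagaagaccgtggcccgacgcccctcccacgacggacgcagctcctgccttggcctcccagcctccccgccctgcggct
Chrnb4, chr9:55048545-55048794, minus strand: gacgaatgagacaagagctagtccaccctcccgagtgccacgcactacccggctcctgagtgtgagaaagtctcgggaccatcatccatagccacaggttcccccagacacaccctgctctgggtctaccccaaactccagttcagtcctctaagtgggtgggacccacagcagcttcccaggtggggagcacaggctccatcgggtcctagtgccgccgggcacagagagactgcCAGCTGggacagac
Grin2c, chr11:115267244-115267493, minus strand: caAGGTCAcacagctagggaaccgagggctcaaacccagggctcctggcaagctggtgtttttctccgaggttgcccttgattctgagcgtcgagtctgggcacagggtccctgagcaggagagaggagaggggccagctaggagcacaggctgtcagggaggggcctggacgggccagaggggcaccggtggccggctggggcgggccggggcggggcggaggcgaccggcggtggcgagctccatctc
In the 300 base windows of the RefSeq table (250 before and 50 after a start), 46 of the 64 members matched, with 54 promoters. Over the 250 bases before the start, their median GC content was 58.8%, against 52.4% over all 32841 promoters. The median ratio of observed to expected CpG there was 0.46 against 0.37. In the same 250 bases, CAGCTG stood in 13.0% of member promoters and 13.0% of all. AGGTCA stood in 7.4% against 14.0%, and CAGATG, another E-box, in 5.6% against 14.4%. A match is a description of the letters and not of a bound site.

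**Figure D1:**
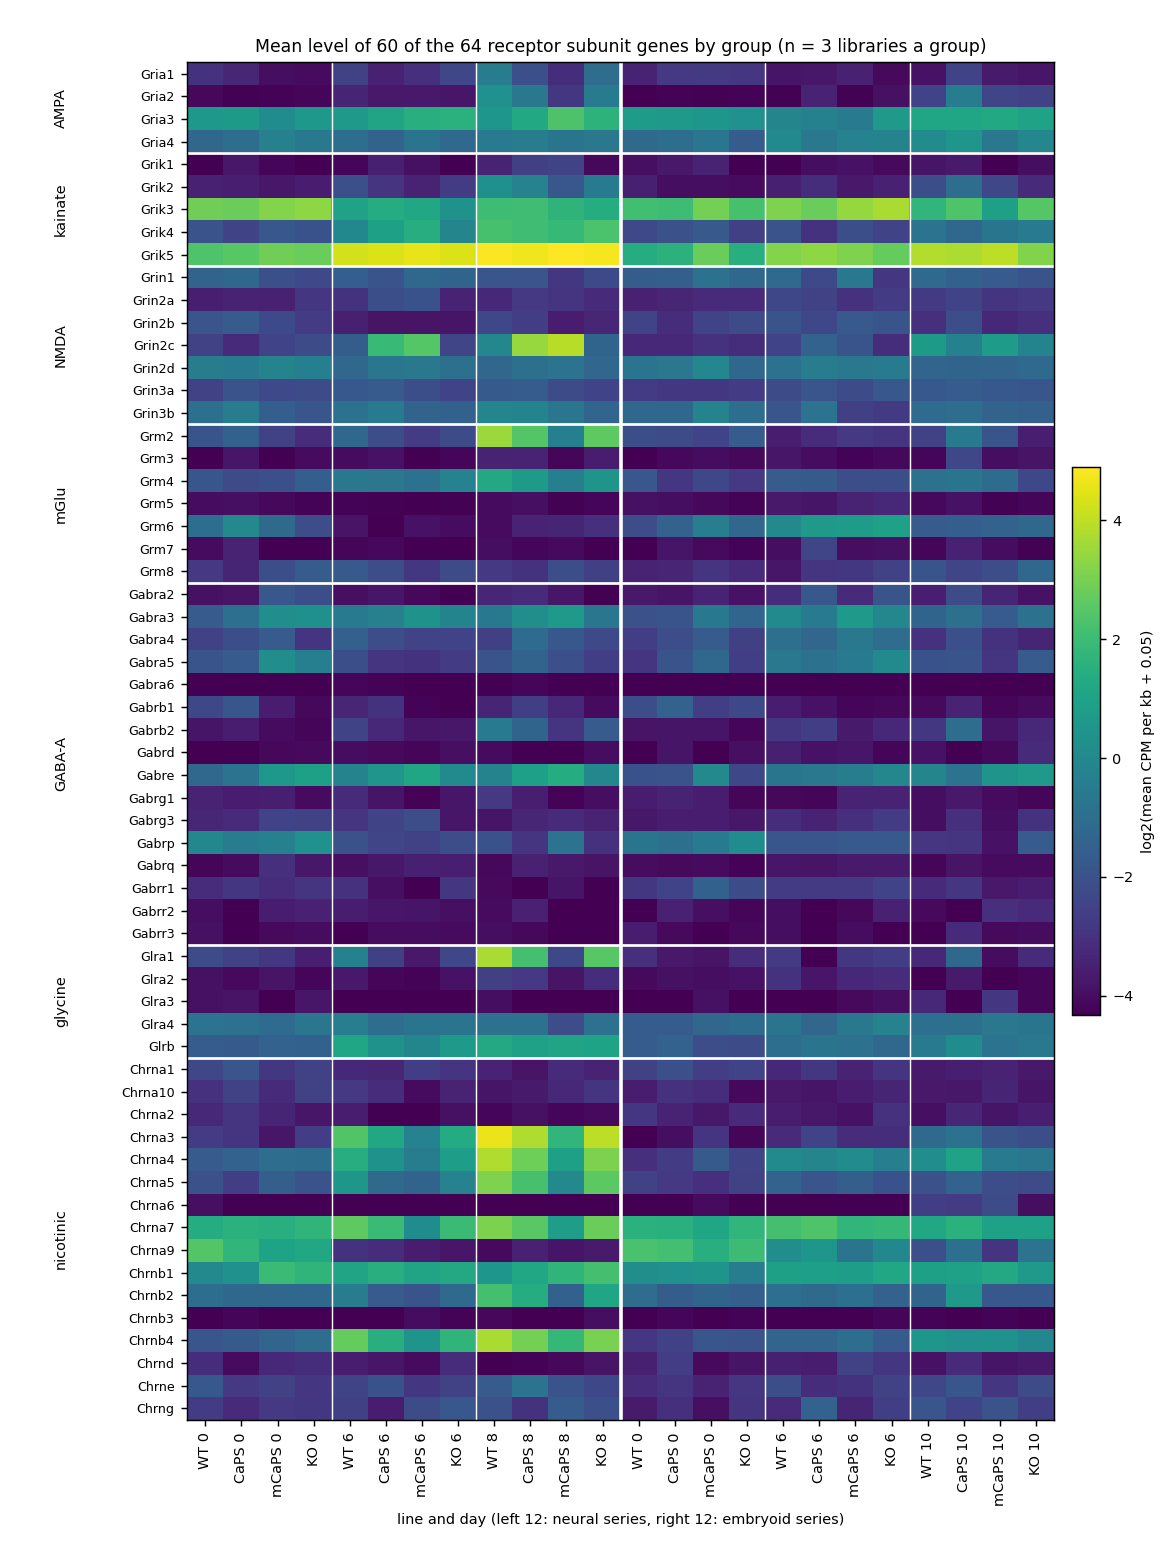
Mean level of 60 of the 64 genes (rows, by family) in the 24 groups of the WT, CaPS, mCaPS and KO lines (columns, line and day), as log2(mean CPM per kb + 0.05), n = 3 libraries a group. Chrna3, Chrna4, Chrnb4, Glra1 and Grm2 are bright in WT neural day 8 and darker in mCaPS, while Grin2c is bright in CaPS and mCaPS, and Grik5 is bright in the neural groups of all 4 lines from day 6.

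In WT cells on the neural path, at least 1 subunit of each of the 7 families rose between day 0 and day 8, and few fell. In the NMDA and GABA-A families the share that rose was below that of all genes. Of the 52 members tested, 20 rose and 4 fell, 38.5% and 7.69%, where 27.5% of the 17818 genes tested were called higher and 24.9% lower (adjusted p below 0.05). The median log2 change was 0.97 over the members and 0.05 over all genes. By day 6, 10 had risen and 4 had fallen since day 0 (19.0% and 18.2% of all genes), and from day 6 to day 8 another comparison called 11 higher and 0 lower (4.59% and 2.75% of all genes; 4 members were lower at an unadjusted p below 0.05, at which 21.9% of all genes differed either way). The count of 11 was 6, 6 and 5 without WT day 6 libraries 1, 2 and 3 and 7 without WT day 8 library 1 or 2.

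Nicotinic subunits made up the largest share of the level on day 8. Of 13 tested, 6 rose and 2 fell from day 0 to day 8. Chrna3, the alpha3 subunit, was at 0.340, 0.260 and 0.363 CPM on day 0, 17.1, 19.4 and 11.6 CPM on day 6 and 87.1, 94.7 and 47.7 CPM on day 8. The 3 days did not overlap, and the log2 change to day 8 was 7.90 ± 1.13 (SE, n = 3 against 3, edgeR adjusted p = 1.61e-06). Its neighbour Chrnb4 went from 1.28, 0.676 and 0.435 CPM to 37.8, 62.7 and 37.2 CPM (log2 change 5.87 ± 0.84, edgeR adjusted p = 1.61e-06). Chrna5, the third gene of the cluster, was at 0.595, 0.468 and 0.508 CPM on day 0 and 26.7, 27.4 and 16.4 CPM on day 8 (5.49 ± 0.82, edgeR adjusted p = 3.08e-06). All 3 neighbours were thus low in every stem cell library and high in every day 8 library, with no overlap.

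Chrna4, which pairs with the beta2 subunit in the main nicotinic receptor of the brain, was at 1.45, 0.416 and 1.67 CPM on day 0 and 55.0, 74.9 and 55.8 CPM on day 8 (5.74 ± 0.87, edgeR adjusted p = 4e-06). Its partner Chrnb2 had 2.13, 2.86 and 2.39 CPM and then 36.2, 19.7 and 16.0 CPM (3.28 ± 0.62, edgeR adjusted p = 6.66e-05). Chrna7, which forms receptors of a single subunit type, rose by less, a log2 change of 1.73 ± 0.73 (edgeR adjusted p = 0.0479). Chrna9, known from the hair cells of the inner ear, moved the other way: it stood at 7.44, 16.5 and 8.23 CPM in the stem cells, 0.0544, 0.282 and 0.127 CPM on day 6 and 0, 0.0538 and 0 CPM on day 8 (log2 change -8.85 ± 1.23, edgeR adjusted p = 8.44e-07). Chrnd, the delta subunit of the muscle receptor, was near the floor, at 0.255, 0.104 and 0.217 CPM on day 0 and 0 in all 3 day 8 libraries (at least 6.25-fold lower against a floor of 3 counts over the group, edgeR adjusted p = 0.0182).

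Of the kainate subunits, 4 of 5 rose and 1 fell. Grik5 (chr7:25009851-25072369), the GluK5 subunit that needs a partner such as GluK2 to form a channel, was at 27.6, 10.4 and 20.3 CPM on day 0, 71.5, 78.4 and 74.6 CPM on day 6 and 87.5, 146 and 95.1 CPM on day 8 (2.50 ± 0.32, edgeR adjusted p = 3.86e-07). Grik4, the related GluK4, went from 1.11, 0.468 and 0.580 CPM to 12.9, 21.2 and 14.2 CPM (4.51 ± 0.50, edgeR adjusted p = 3.48e-08). Grik2, which can form channels on its own, went from 0.0851, 0.364 and 0.870 CPM to 19.7, 9.83 and 9.27 CPM (4.86 ± 0.82, edgeR adjusted p = 1.72e-05). These 3 genes did not overlap between the days. Grik1 was at 0 on day 0 and 0.237, 0.0538 and 0.225 CPM on day 8 (at least 5.14-fold higher, edgeR adjusted p = 0.0227), a low level in every library. Grik3, in contrast, started high: it had 82.5, 50.1 and 62.9 CPM on day 0, 20.1, 16.4 and 14.9 CPM on day 6 and 50.8, 25.4 and 31.0 CPM on day 8. Its day 0 and day 8 libraries overlapped narrowly, and the log2 change was -0.86 ± 0.36 (edgeR adjusted p = 0.0447).

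AMPA receptors differed by subunit. Gria2, the subunit that makes AMPA channels impermeable to calcium once its RNA is edited, was at 0, 0.182 and 0.0725 CPM on day 0, 0.761, 0.423 and 0.382 CPM on day 6 and 14.1, 17.2 and 9.87 CPM on day 8 (7.14 ± 1.06, edgeR adjusted p = 2.79e-06). From day 6 to day 8 alone its log2 change was 4.71 ± 0.90 (edgeR adjusted p = 0.00186). Gria1 followed at a lower level, with 0.936, 0.312 and 0.145 CPM on day 0 and 3.09, 4.79 and 4.35 CPM on day 8 (3.15 ± 0.86, edgeR adjusted p = 0.00315). Gria3 was already present in stem cells and its groups overlapped: 7.74, 14.5 and 3.12 CPM on day 0 and 2.67, 11.1 and 9.83 CPM on day 8 (-0.10 ± 0.67, edgeR adjusted p = 0.911).

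NMDA receptor genes changed little. Of 7 tested, 1 was called higher on day 8 and 0 lower, where 27.5% of all genes were called higher and 24.9% lower. Grin1, the subunit every NMDA receptor needs, stayed low, at 2.25, 0.468 and 1.67 CPM on day 0 and 0.623, 1.32 and 0.901 CPM on day 8. Its exons share 29.9% of their bases with the antisense gene Grin1os, and the counting strand is not stated, so reads of the pair cannot be told apart. Grin2c, the GluN2C subunit best known from cerebellar granule cells, was called higher, with 0.681, 0.468 and 0.653 CPM on day 0 and 1.37, 9.69 and 2.40 CPM on day 8 (2.92 ± 1.10, edgeR adjusted p = 0.0267). Library 2 of day 8 was the high one, and without it the log2 change was 1.65 (edgeR adjusted p = 0.243). Grin2b, the main partner of Grin1 in the embryonic brain, dipped: 3.40, 7.54 and 5.00 CPM on day 0, 0.272, 1.46 and 1.02 CPM on day 6 and 5.99, 2.32 and 2.55 CPM on day 8. It fell to day 6 (-2.53 ± 0.63, edgeR adjusted p = 0.00232) and rose from there to day 8 (1.98 ± 0.62, edgeR adjusted p = 0.0479, or 0.109 with libraries paired by number). Grin3b had 4.72, 2.26 and 1.58 CPM on day 8 (0.92 ± 0.54 from day 0, edgeR adjusted p = 0.154), and Grin2d had 1.13, 1.70 and 1.88 CPM (-0.92 ± 0.41, edgeR adjusted p = 0.0581).

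Among inhibitory receptors, 2 of the 4 glycine receptor genes tested rose from day 0 to day 8 and 0 fell. Over all genes, 27.5% were called higher and 24.9% lower. Glra1 (chr11:55514239-55608198), the alpha1 subunit of the spinal glycine receptor, was at 0.681, 0.286 and 0.254 CPM on day 0, 1.69, 3.05 and 0.922 CPM on day 6 and 37.1, 31.6 and 25.9 CPM on day 8 (6.30 ± 1.04, edgeR adjusted p = 1.35e-05). Glrb, the beta subunit that anchors the receptor at synapses through gephyrin, rose earlier, from 0.425, 0.988 and 1.23 CPM to 8.32, 6.34 and 5.60 CPM on day 6 and 9.20, 6.41 and 6.79 CPM on day 8 (3.07 ± 0.43, edgeR adjusted p = 1.29e-06). Both were above every stem cell library on day 8. Glra4 did not differ beyond its spread (-0.05 ± 0.59, edgeR adjusted p = 0.95).

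For the GABA-A receptor, 3 of 15 tested subunits rose and 0 fell, where 27.5% of all genes were called higher and 24.9% lower. One of these 3, the beta subunit gene Gabrb2, went from 0.340, 0.208 and 0 CPM to 6.80, 3.07 and 5.41 CPM (4.79 ± 1.04, edgeR adjusted p = 0.000344). All 3 of its day 8 libraries were above those of day 0. Gabre, one of the more abundant genes of the family per kilobase, had 0.534, 3.88 and 2.55 CPM on day 8 (1.12 ± 0.75, edgeR adjusted p = 0.216).

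Of the metabotropic receptors, Grm2, a presynaptic receptor that lowers transmitter release, was at 0.510, 0.936 and 0.653 CPM on day 0, 1.47, 1.01 and 1.24 CPM on day 6 and 32.7, 51.7 and 28.5 CPM on day 8 (5.72 ± 0.92, edgeR adjusted p = 8.48e-06). Grm4, also presynaptic, went from 0.425, 0.988 and 1.70 CPM to 7.72, 15.3 and 9.01 CPM (3.35 ± 0.54, edgeR adjusted p = 8.25e-06). Grm6, the receptor of retinal ON bipolar cells, was at 3.36, 0.182 and 2.39 CPM in stem cells and 0.0593, 0.0808 and 0 CPM on day 8 (-5.21 ± 1.27, edgeR adjusted p = 0.00111). Grm8 stayed under 1 CPM on both days (-0.02 ± 0.86, edgeR adjusted p = 0.986).

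**Figure D2:**
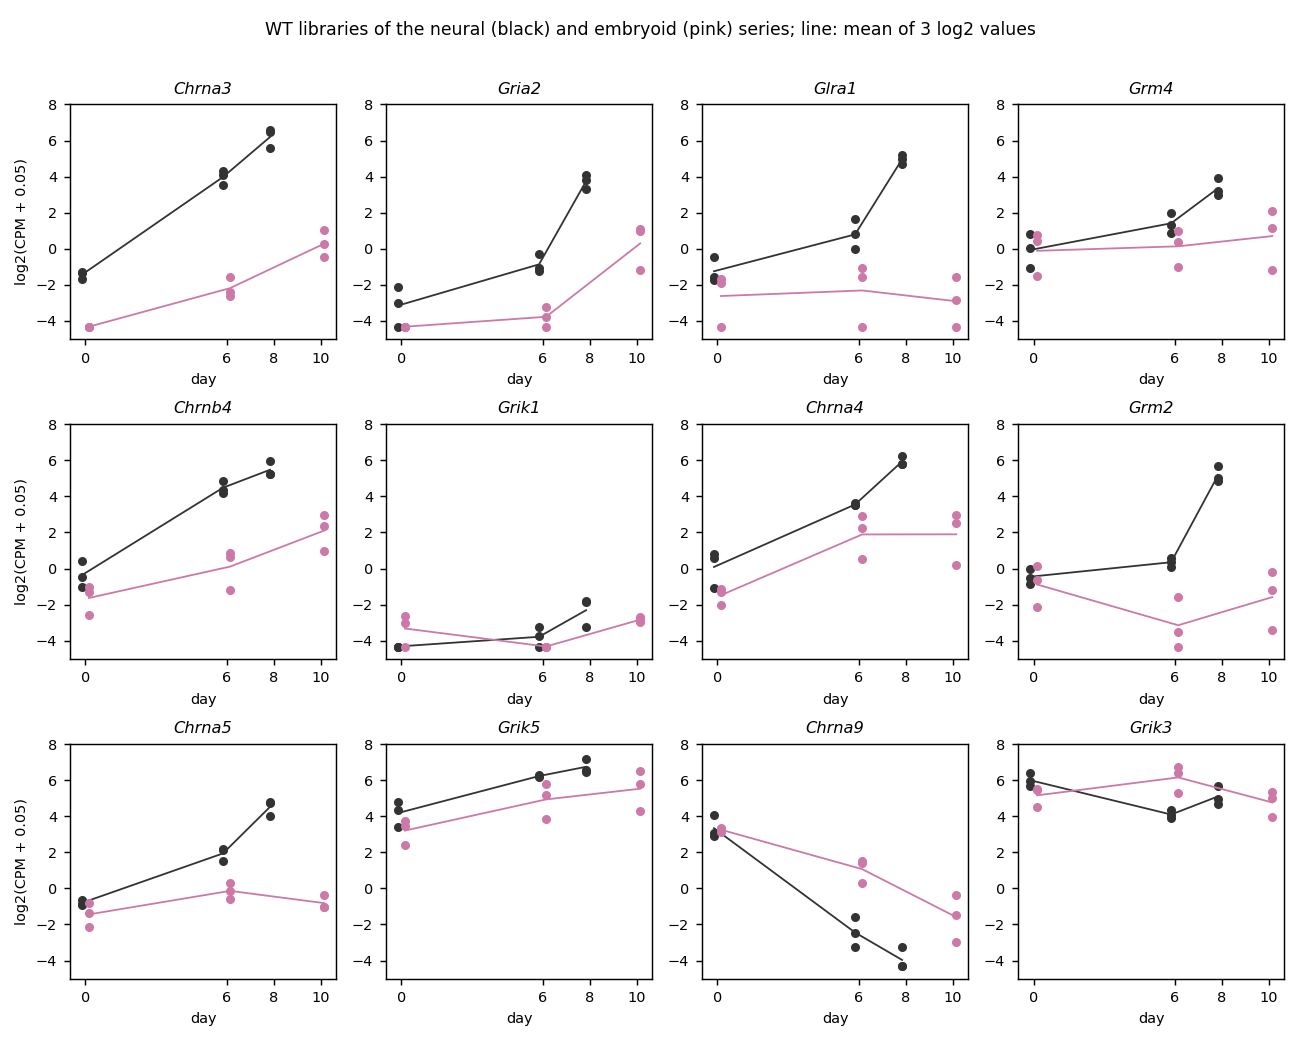
Level of 12 members in each WT library against day, as log2(CPM + 0.05), in the neural series (black, days 0, 6 and 8) and the embryoid series (pink, days 0, 6 and 10), with lines through the means of 3 libraries. Gria2, Glra1 and Grm2 rise mainly between neural days 6 and 8, Chrna3 and Chrnb4 already by day 6, and Chrna9 falls in both series.

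Levels of different genes were set side by side per kilobase of transcript. In WT neural day 8, Grik5 led with 28.4 ± 8.22 CPM per kb (mean ± SD, n = 3), followed by Chrna3 with 24.5 ± 8.09. These overlapped within 1 SD. Chrna4 (14.0 ± 2.54), Chrnb4 (13.2 ± 4.17), Glra1 (13.1 ± 2.31) and Grm2 (11.3 ± 3.72) came next and did not differ beyond their spread, then Chrna5 (8.58 ± 2.26) and Chrna7 (8.37 ± 1.89). The best AMPA and NMDA subunits were lower: Gria3 had 1.38 ± 0.80 and Grin2c 0.92 ± 0.93 CPM per kb. On day 0 the order was led by Grik3 (7.37 ± 1.85), Chrna9 (5.36 ± 2.51) and Grik5 (5.03 ± 2.24). Summed over the members, nicotinic genes took 32.3% of the CPM per kb on day 0 and 47.7% on day 8, glycine receptor genes 2.95% and 10.2%, and kainate genes 37.8% and 24.4%. The summed CPM of all 64 members was 181, 142 and 156 on day 0 and 613, 703 and 486 on day 8. In the neural series, 24 of the 64 had a mean under 1 CPM in each of the 12 groups of WT, CaPS, mCaPS and KO.

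Genes that load, clear and anchor the same transmitters were tested with them, in lists chosen with earlier results of these data known. From day 0 to day 8 in WT, 27.5% of all genes were called higher and 24.9% lower. In the same WT comparison of day 8 with day 0, transmitter synthesis and vesicular loading genes had 4 of 9 tested called higher and 0 lower, among them Gad2, which makes GABA (log2 change 5.66 ± 1.03, edgeR adjusted p = 4.41e-05), and the transporters Slc17a8 (4.49) and Slc32a1 (4.33). Uptake and breakdown genes had 6 of 12 higher, including the glutamate transporter Slc1a2 (6.55), and 1 lower, the choline transporter Slc5a7 (-3.72). Auxiliary subunits and chaperones had 12 of 16 higher and 2 lower, among them the AMPA receptor partner Gsg1l (6.73). Scaffolds had 16 of 21 higher, including the neuroligin Nlgn1 (5.93), and 1 lower, Rapsn (-1.51), which clusters muscle nicotinic receptors. Related receptors outside the 7 families had 4 of 9 higher, with Grid1 at 3.16. The medians of these lists were 0.63, 1.47, 2.32, 1.25 and 1.55 against 0.05 over all genes. In the same comparison, 8 of 14 neuron markers and 10 of 11 neural progenitor markers were called higher, and their part in the receptor results was not tested.

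The promoters of the 20 members that rose were set beside the others as a description. The 14 of the 20 with a RefSeq entry had 17 promoters, with a median GC content of 63.2% and a CpG ratio of 0.57. Those of 23 uncalled members (27 promoters) had 54.4% and 0.45. AGGTCA stood in 3 of the 17 and in 0 of the 27, and CAGCTG in 1 of 17 and 4 of 27. Over all promoters these letters stood in 14.0% and 13.0%, and the small numbers here were not tested. Of the 3 with AGGTCA, 1 was that of Grin2c, whose call was lost without WT day 8 library 2.

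In WT embryoid bodies, some receptor genes were also higher on the last day, at lower levels. From day 0 to day 10, 12 of 54 tested members rose and 4 fell, 22.2% and 7.41%, against 14.7% and 14.5% of all 17791 genes, with a median log2 change of 0.44 over members and -0.02 over all. The count of 16 was 9 when library 2 of WT day 0 or of WT day 10 was left out. By day 6, 8 had risen and 1 had fallen (3.26% and 4.62% of all genes; 9 in all, but 5 without WT day 0 library 2 and 4 without WT day 0 library 3 or WT day 6 library 2), and from day 6 to day 10, 6 rose and 8 fell (9.07% and 7.12% of all genes). Without the 6 WT and CaPS embryoid libraries numbered 1, the last count was 2 in place of 14, and it was 7, 8 and 9 without WT day 6 libraries 1, 2 and 3 and 8 without WT day 10 library 3.

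Gria2 was at 0 in all 3 embryoid day 0 libraries and 1.91, 2.08 and 0.394 CPM on day 10 (at least 43.4-fold higher, edgeR adjusted p = 0.0017). Chrna3 was at 0 on day 0 and 1.16, 0.667 and 2.02 CPM on day 10 (at least 38.1-fold higher, edgeR adjusted p = 9.57e-05). Chrna6, a subunit known from dopamine neurons, was at 0 on days 0 and 6 and 0.0890, 0.628 and 0.263 CPM on day 10 (at least 9.69-fold higher, edgeR adjusted p = 0.019; too low to be tested in the paired fit of the 2 groups). Each was thus detected in every day 10 library and in no WT stem cell library of this series. Grin2c went from 0.0594, 0.483 and 0.243 CPM to 7.34, 7.18 and 8.67 CPM (4.81 ± 1.00, edgeR adjusted p = 0.000599), a rise after day 6 with little spread between libraries. Chrnb4 went from 0.119, 0.446 and 0.353 CPM to 1.91, 5.06 and 7.88 CPM (3.95 ± 0.76, edgeR adjusted p = 0.000253), and Chrna4 from 0.356, 0.409 and 0.199 CPM to 1.11, 7.73 and 5.67 CPM (3.94 ± 0.74, edgeR adjusted p = 0.000191). In both, library 1 was the lowest on day 10.

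Grik5 was again the most abundant per kilobase on day 10, at 14.2 ± 9.04 CPM per kb, and rose from 5.16, 13.4 and 11.1 CPM to 19.5, 89.4 and 55.5 CPM (2.47 ± 0.56, edgeR adjusted p = 0.00148). Gabre, the epsilon subunit of the GABA-A receptor, rose with overlapping groups (0.119, 0.669 and 0.905 CPM, then 0.534, 3.10 and 3.65 CPM; 2.04 ± 0.77, edgeR adjusted p = 0.0451). Chrna9 fell here too, from 9.68, 8.62 and 10.2 CPM to 0.311, 0.0784 and 0.735 CPM (-4.59 ± 0.63, edgeR adjusted p = 4.78e-06). The other 3 that fell were low from the start: Gabrb1 (-3.84 ± 1.34, edgeR adjusted p = 0.0241, not tested in the paired fit), Gabrp (-2.58 ± 0.86, edgeR adjusted p = 0.0235) and Chrna1, the muscle alpha subunit (-2.11 ± 0.67, edgeR adjusted p = 0.0161). The highest day 10 library of these 3 genes had 0.420 CPM. In the related lists, 2 of 9 synthesis and loading genes were higher (Gad2 at 4.64 and Slc32a1 at 3.23) and 1 lower, 2 of 16 auxiliary genes were higher and 3 lower, and 7 of 20 scaffolds were higher and 1 lower. Over all genes 14.7% were called higher and 14.5% lower. The summed CPM of neuron markers in WT embryoid libraries was 410, 400 and 260 on day 0 and 101, 129 and 133 on day 10, and that of cardiac muscle markers was 8.45 to 17.0 and 278 to 1150.

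The change from day 0 to day 6, the only interval both series share, was compared between them in WT cells by an interaction term. It was more positive in the neural series for 1 and more negative for 5 of 57 members tested (3.36% and 2.61% of 18407 genes). Glrb rose more in the neural series (log2 difference of the changes 2.20 ± 0.63, edgeR adjusted p = 0.0242). Grm6 differed most: neural libraries went from 3.36, 0.182 and 2.39 CPM to 0, 0.141 and 0.127 CPM and embryoid libraries from 0.594, 1.26 and 0.419 CPM to 3.21, 5.77 and 3.79 CPM (-6.87 ± 1.31, edgeR adjusted p = 0.000391). Grik3 showed the same contrast at a high level, with 39.7, 107 and 84.1 CPM on embryoid day 6 after 22.7, 43.4 and 45.8 CPM (-2.94 ± 0.52, edgeR adjusted p = 0.000136). Chrna9 and Grin2b also had lower neural changes (-3.90 ± 1.02 and -3.18 ± 0.95). The series are separate sets of libraries, so series and differentiation method cannot be told apart, and the count of 6 was 3 without neural day 6 library 1 or embryoid day 6 library 3.

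Before differentiation the lines differed in few members. On neural day 0, 1 member was called in mCaPS against WT (3.02% of all genes called either way) and 1 in the libraries labelled KO against WT (5.52%), the same gene in both. Gabra3, an alpha subunit of the GABA-A receptor on X, stood at 0.893, 0.754 and 1.52 CPM in WT, 1.62, 1.72 and 2.37 CPM in CaPS, 4.96, 3.42 and 5.36 CPM in mCaPS and 5.42, 4.52 and 4.58 CPM in KO. All mCaPS and KO libraries were above all WT libraries. The log2 difference was 2.12 ± 0.58 for mCaPS (edgeR adjusted p = 0.0407) and 2.20 ± 0.58 for KO (edgeR adjusted p = 0.0241), and both comparisons use the same WT libraries. Deviations of same-numbered libraries did not go together in mCaPS and WT (correlations 0.21, 0.02 and -0.05) or in KO and WT (0, -0.13 and -0.02). The labels do not say whether WT and CaPS were handled apart from mCaPS and KO. Library set and line thus cannot be told apart where these pairs of lines are compared in the neural series. The mCaPS count was 0 without WT library 1 or 2 or any mCaPS library and 2 without WT library 3, and the KO count was 0 without WT library 1 or 2 or KO library 1 or 2 and 4 without KO library 3. CaPS against WT called 0 of 52 members on day 0 (0.0% of all genes), with 1 at an unadjusted p below 0.05 (3.59% of all genes) and 0 by DESeq2. The CaPS and WT libraries of one number deviated together on that day, and with the number as a block in a fit of these 2 groups, 627 of 15448 genes were called (267 higher and 360 lower in CaPS) but still 0 members.

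On neural day 8, receptor subunit genes of all 7 families included members that were lower in mCaPS than in WT. Of 52 members, 16 were lower and 1 higher than in WT (30.8% and 1.92%), against 9.06% lower and 9.39% higher among all genes. Nicotinic genes had 6 of 13 lower, GABA-A genes 3 of 15, AMPA genes 2 of 4 and metabotropic genes 2 of 4. In the other families only 1 gene was lower, of 7 NMDA, 5 kainate and 4 glycine receptor genes tested. The 1 higher was an NMDA gene. In all 17 the 3 mCaPS libraries did not overlap the 3 WT libraries. These 17 were picked by the call on the same libraries, so this is not separate support. Same-numbered mCaPS and WT libraries did not deviate together on day 8 either (correlations 0.21, -0.06 and 0.07), so library set and line cannot be told apart. The count was 9 without WT day 8 library 1 (0 higher, 9 lower) and 9 without mCaPS day 8 library 3 (1 higher, 8 lower), and 11 when only these 2 groups were fitted.

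Glra1, at 37.1, 31.6 and 25.9 CPM in WT, had 0.628, 0.456 and 0 CPM in mCaPS (-6.38 ± 1.04, edgeR adjusted p = 0.000543). Grm2 had 3.05, 4.22 and 0.0647 CPM in mCaPS (-3.93 ± 0.83, edgeR adjusted p = 0.00251). Library 3 was the lowest of the line for Glra1 and Grm2. Chrnb2 had 1.86, 2.88 and 0.323 CPM (-3.81 ± 0.63, edgeR adjusted p = 0.000585), Gria2 0.732, 0.912 and 1.42 CPM (-3.75 ± 0.85, edgeR adjusted p = 0.00395) and Gria1 0.209, 0.384 and 0.582 CPM (-3.39 ± 0.87, edgeR adjusted p = 0.00825). The chromosome 9 cluster was lower as well: Chrna5 by -3.15, Chrna3 by -2.89 and Chrnb4 by -1.91 on the log2 scale. Chrna3 in mCaPS was at 16.0, 14.7 and 0.194 CPM, still above every WT stem cell library in 2 of the 3 libraries. Also lower were Chrna4, Gabrb2, Grik2, Chrna7, Grin2b and Grm4, by 1.63 to 2.93 on the log2 scale.

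Some members at a high level in WT were not called. Grik5 had 97.0, 111 and 136 CPM in mCaPS, in the range of WT (0.07 ± 0.30, edgeR adjusted p = 0.907), and Glrb had 4.50, 5.95 and 9.63 CPM, overlapping the WT libraries. Grik4 also overlapped WT, at 12.8, 8.78 and 15.5 CPM.

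**Figure D3:**
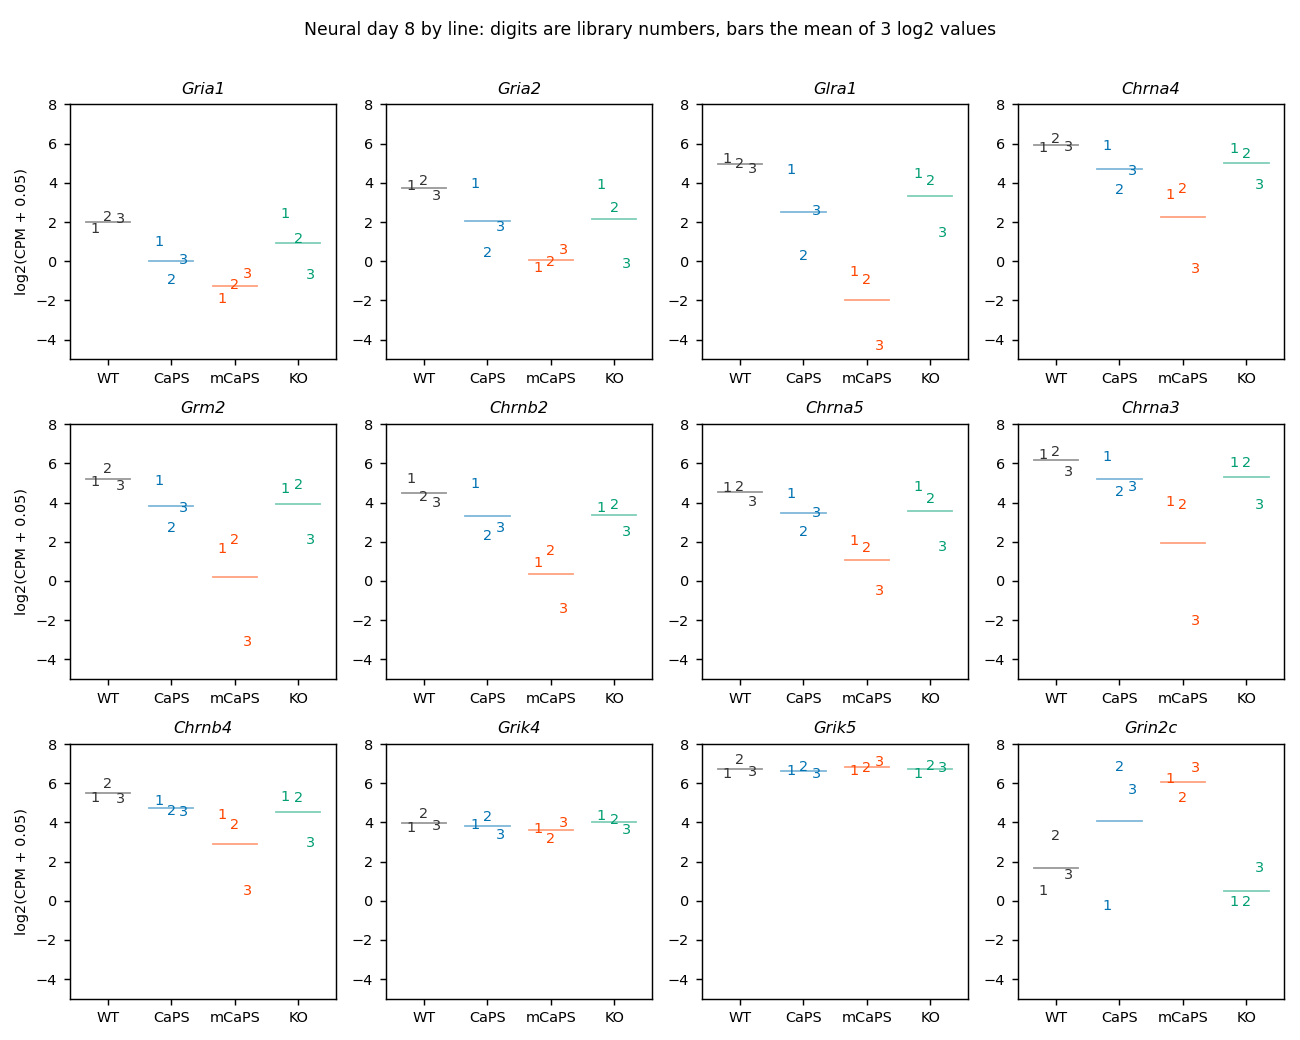
Level of 12 members in each neural day 8 library as log2(CPM + 0.05), by line, where digits are library numbers and bars the mean of 3 log2 values. WT libraries sit together for Glra1, and all mCaPS libraries are below those of the other lines for Glra1 and Chrnb2. For Glra1 and Chrna3, CaPS library 1 lies near WT and libraries 2 and 3 below it. For Grin2c, CaPS libraries 2 and 3 lie above library 1. The lines overlap for Grik4 and Grik5.

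Grin2c went the opposite way. On neural day 0 its level was 0.170 to 1.25 CPM in all 12 libraries of the 4 lines. On day 6 it was 0.870, 2.30 and 0.954 CPM in WT, 1.03, 28.4 and 24.6 CPM in CaPS, 39.6, 7.45 and 34.3 CPM in mCaPS and 0.286, 0.607 and 1.14 CPM in KO. On day 8 it was 1.37, 9.69 and 2.40 CPM in WT, 0.775, 113 and 49.9 CPM in CaPS, 74.4, 37.3 and 109 CPM in mCaPS and 0.903, 0.895 and 3.20 CPM in KO. All mCaPS libraries and CaPS libraries 2 and 3 were high on both days, while CaPS library 1 stayed with WT and KO. In mCaPS against WT the log2 difference was 4.29 ± 1.09 on day 6 (edgeR adjusted p = 0.0352) and 4.03 ± 1.06 on day 8 (edgeR adjusted p = 0.0102), and without WT day 8 library 1 the latter was 3.64 (adjusted p = 0.0604). On day 6, Glra1 was the other member called in mCaPS against WT, at 0.101, 0.0427 and 0.0509 CPM against 1.69, 3.05 and 0.922 CPM (-4.75 ± 1.09, edgeR adjusted p = 0.0243). The shares of all genes called on day 6 were 1.35% higher and 0.87% lower, and the count of 2 was 0 without WT library 1 or 2 or mCaPS library 1 or 3, 1 without WT library 3 and 4 without mCaPS library 2.

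In CaPS against WT, 0 of 52 members were called on neural day 6 (0.0% of all genes) and 0 on day 8 (0.0112%). These shares are from the fit without a block, though libraries of one number deviated together on both days. With the number as a block in a fit of the 2 groups, 0 members were called on either day. No share of all genes called with the block is given for these days, so this 0 is not set against a background. At an unadjusted p below 0.05 there were 6 and 3 (6.59% and 8.79% of all genes), and DESeq2 called 1 on each day, Grin2c. For Grin2c the edgeR log2 difference was 3.69 ± 1.06 on day 6 (adjusted p = 0.258) and 3.59 ± 1.04 on day 8 (adjusted p = 0.177), with CaPS library 1 overlapping WT. Without CaPS day 8 library 1, 3 members were called, with Grin2c at 4.21 (edgeR adjusted p = 0.00629), and without CaPS day 6 library 1, Grin2c was called at 4.25 (edgeR adjusted p = 0.0318). Leaving out a library because of its value selects on the outcome, so these are values and not a test of the line. Glra1 in CaPS on day 8 was at 25.4, 1.17 and 5.76 CPM and Chrna3 at 80.5, 23.0 and 27.8 CPM, so library 1 was near WT for these as well.

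The libraries labelled KO called 0 members against WT on day 6 (0.0281% of all genes) and on day 8 (0.0505%), while 5 and 4 had an unadjusted p below 0.05 (4.76% and 8.53% of all genes) and none were called by DESeq2. Library 3 was lowest on day 8 for many members: Glra1 had 21.5, 16.9 and 2.64 CPM, Grm2 26.3, 30.0 and 4.20 CPM and Gria2 14.8, 6.60 and 0.869 CPM.

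Direct comparisons of lines gave fewer calls. CaPS exceeded mCaPS on neural day 8 in 2 of 52 members (1.17% of all genes higher), Glra1 (4.83 ± 0.97, edgeR adjusted p = 0.0151) and Chrnb2 (3.03 ± 0.61, edgeR adjusted p = 0.0151). For both, no CaPS library overlapped an mCaPS library. This count was 0 without CaPS library 1 or mCaPS library 3, 7 without CaPS library 2, 4 without mCaPS library 1, 1 without mCaPS library 2, and 0 when only the 2 groups were fitted. On neural days 0 and 6 the pair had 0 members called (2.1% and 0.0112% of all genes), while 9 and 5 had an unadjusted p below 0.05 (12.9% and 3.03%) and 1 and 0 by DESeq2. Grin2c did not separate CaPS from mCaPS on day 8 (-0.43 ± 0.93, edgeR adjusted p = 0.839). Counts of Cbx7 itself differed on day 8, at 42.9, 69.7 and 55.0 CPM in CaPS and 10.6, 13.7 and 14.7 CPM in mCaPS (2.11 ± 0.33, edgeR adjusted p = 0.00495). On that day Cbx7 was also lower in mCaPS than in KO (-1.09 ± 0.32, edgeR adjusted p = 0.0393). The part of the Cbx7 level in the receptor results was not tested.

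The comparison of mCaPS with the libraries labelled KO was added after the values had been seen. On day 6, 4 members were higher in mCaPS (2.47% of all genes), Grin2c (5.32 ± 1.15, edgeR adjusted p = 0.00889), Gabrg3 (2.85), Grin2a (2.17) and Grik4 (1.61), and 0 were lower (1.64% of all genes; 4 lower at an unadjusted p below 0.05, against 17.9% of all genes either way). On day 8, 1 was higher (2.47% of all genes), Grin2c at 5.48 ± 1.15 (edgeR adjusted p = 0.00614), and 6 were lower (3.95%): Glra1 (-5.18 ± 0.99, edgeR adjusted p = 0.00366), Grm2, Gria2, Gria1, Chrnb2 and Chrna5. Of these 6, Glra1 and Chrnb2 did not overlap between the groups. Libraries of one number deviated together in this pair of lines, and with the number as a block in a fit of the 2 groups, day 6 had 12 called (5 higher and 7 lower) in place of 4, of which 3 were shared. Those lower included Chrna7 (-2.10 ± 0.43), Chrna3 (-1.94 ± 0.44), Chrnb4 (-1.47 ± 0.36), Chrna4 (-1.42 ± 0.35) and Chrna5 (-1.31 ± 0.28; edgeR adjusted p = 0.0257, 0.0339, 0.0396, 0.0366 and 0.0225), while Gabrg3 was no longer called (adjusted p = 0.128). On day 8 the block gave 8 (1 higher and 7 lower), without Gria1 and Gria2 (adjusted p = 0.173 and 0.207) and with Chrna4, Chrna7 and Chrnb4. All shares of all genes in this paragraph are from the fit without the block. None is given for the block counts of 12 and 8, so these are not set against a background. In the fit over all groups, the day 6 count was 0 without KO library 1 or 2 and 1 without KO library 3 or mCaPS library 1 or 3. On day 8 it was 2 without mCaPS library 3 or KO library 1, 3 without KO library 2 and 12 without KO library 3. CaPS against KO on day 8, also added, called Grin2c (5.05 ± 1.12, edgeR adjusted p = 0.022; 0.561% of all genes higher), with overlapping groups, and 0 members without CaPS library 2 or 3 or KO library 1 or 2.

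Markers of several cell types moved with these differences on neural day 8. The summed CPM of neuron markers was 2440, 1360 and 1230 in WT, 2260, 198 and 553 in CaPS, 160, 122 and 38.5 in mCaPS and 1330, 1120 and 257 in KO, with all 14 markers lower in mCaPS than in WT by the same test. None of the 14 was at 0 in any of these groups. Of 11 neural progenitor markers, 7 were lower in mCaPS, with sums of 2190, 1740 and 1750 in WT and 464, 630 and 221 in mCaPS. Fibroblast and feeder markers summed to 63.3, 215 and 184 in WT, 126, 973 and 844 in CaPS, 934, 650 and 2380 in mCaPS and 144, 141 and 392 in KO, and 3 of 10 were higher in mCaPS. Cardiac muscle markers summed to 1.01, 6.30 and 5.55 in WT, 1.74, 41.7 and 28.4 in CaPS, 43.2, 53.1 and 106 in mCaPS and 6.57, 5.46 and 95.9 in KO, and 4 of 8 were higher in mCaPS. KO library 3 thus had a cardiac sum near the mCaPS libraries and Grin2c at 3.20 CPM. The part of these cell types in the receptor results was not tested.

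**Figure D4:**
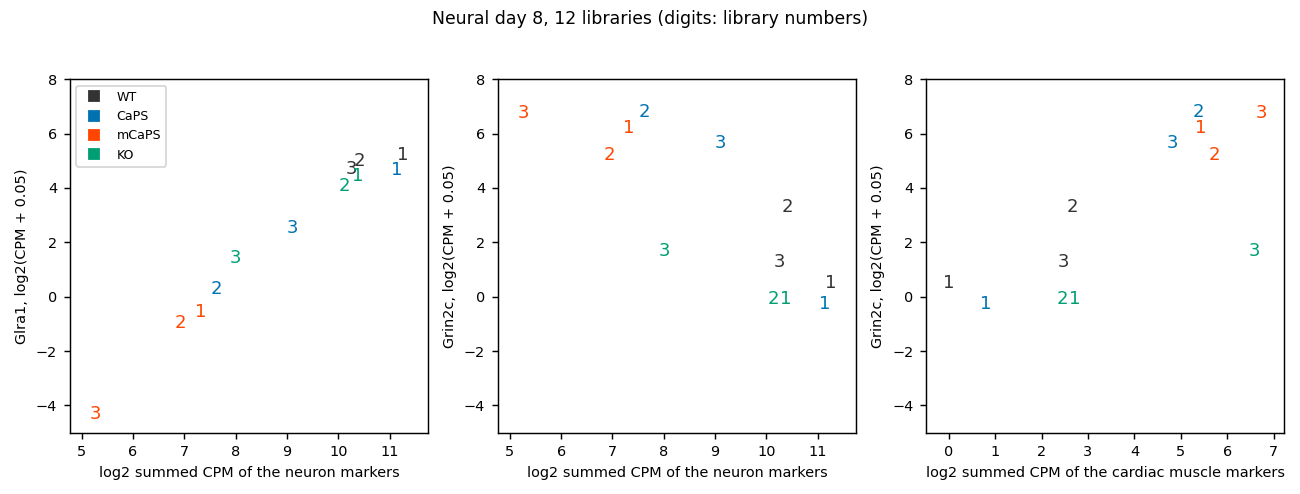
Glra1 (left) and Grin2c (middle) against the summed neuron markers, and Grin2c against the summed cardiac muscle markers (right), in the 12 neural day 8 libraries, on log2 scales with 0.05 CPM added to the gene, where digits are library numbers and colours the lines. Glra1 is high where the neuron sum is high (WT, KO 1 and 2, CaPS 1), while Grin2c is high in mCaPS and CaPS 2 and 3, and KO 3 has a high cardiac sum with Grin2c at 3.20 CPM.

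The same lists were compared between mCaPS and WT on day 8, where 9.06% of all genes were called lower and 9.39% higher. Synthesis and loading genes had 4 of 9 lower and 0 higher (median -2.56), led by the glycine transporter Slc6a5 (-6.03 ± 1.20, edgeR adjusted p = 0.00186), Slc32a1 (-5.15) and Gad2 (-4.25). Uptake and breakdown genes had 4 of 12 lower (median -1.16) and auxiliary subunits and chaperones 9 of 16 lower and 1 higher (median -2.39). The 1 higher was Shisa9, an AMPA receptor partner, at 3.78. Scaffolds had 4 of 21 lower and 1 higher, with a median of -0.13, and related receptors 0 of 9 called. The median over all genes was 0.00.

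In embryoid bodies, no line differed from WT in any tested member by edgeR on any of the 3 days, in 9 comparisons with few calls in all. Gapdh split the libraries by line, with 12.8 to 31.3 CPM in mCaPS and KO. It was at 51.1 to 496 CPM in WT and CaPS libraries 2 and 3 and at 3.47 to 10.3 CPM in those numbered 1. Library set and line thus cannot be told apart where WT or CaPS embryoid bodies are compared with mCaPS or KO. The shares of all genes called on days 0, 6 and 10 were 0.0%, 0.0% and 0.00562% in CaPS, 0.916%, 0.54% and 0.708% in mCaPS and 0.641%, 0.646% and 0.877% in KO. Members at an unadjusted p below 0.05 were 1, 2 and 12 in CaPS (1.43%, 5.46% and 4.29% of all genes), 9, 2 and 3 in mCaPS (11.4%, 4.22% and 6.59%) and 2, 3 and 5 in KO (6.91%, 5.96% and 9.56%). The 12 in CaPS day 10 and the 9 in mCaPS day 0 were all higher than WT, and DESeq2 called 2 in mCaPS day 0 and 0 in the other 8. A count of 1 came up without mCaPS day 0 library 3, KO day 6 library 1 or CaPS day 10 library 1 or 2 in the comparison concerned. Grin2c, called in mCaPS in the neural series, was at 7.34, 7.18 and 8.67 CPM in WT day 10 and 6.87, 7.61 and 9.01 CPM in mCaPS day 10, overlapping throughout. In CaPS day 10 it had 5.01, 5.50 and 0.899 CPM.

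CaPS exceeded mCaPS on embryoid day 10 in 6 of 54 members, 11.1% against 2.7% of all genes, and 0 were lower (0.472% of all genes; 0 also at an unadjusted p below 0.05, against 14.0% of all genes either way). On days 0 and 6 the same pair of lines had 0 called (0.793% and 1.12% of all genes), with 6 and 8 members at an unadjusted p below 0.05 (10.5% and 11.7%) and 0 by DESeq2 on both days. Chrnb2 had 1.59, 1.79 and 21.6 CPM in CaPS and 1.10, 1.45 and 1.24 CPM in mCaPS (2.72 ± 0.58, edgeR adjusted p = 0.0056). Gabrb2 had 0.469, 0.250 and 9.79 CPM against 0.174, 0.0808 and 0.271 CPM (4.30 ± 1.05, edgeR adjusted p = 0.0159), with overlap. In both genes CaPS library 3 was far above the rest, as it was for Gria2 (1.03, 1.29 and 21.7 CPM). Grik3 was higher in all CaPS libraries, at 32.2, 55.6 and 48.4 CPM against 17.7, 15.3 and 16.3 CPM (1.47 ± 0.35, edgeR adjusted p = 0.0158). Chrna9 had 1.03, 0.667 and 1.13 CPM against 0.296, 0.162 and 0.0387 CPM (2.48 ± 0.62, edgeR adjusted p = 0.0187).

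Without CaPS library 3 this count was 1, with Chrnb2 at 0.42 (edgeR adjusted p = 0.709) and Gabrb2 at 1.02 (edgeR adjusted p = 0.732). It was 2, 1 and 1 without mCaPS libraries 1, 2 and 3, 10 without the 6 embryoid libraries numbered 1, and 0 when only the 2 groups were fitted. The neuron marker sum was 145, 149 and 1150 CPM in the 3 CaPS libraries and 101, 64.6 and 77.0 CPM in mCaPS, and 8 of 14 neuron markers were called higher in CaPS. The cardiac sum was 509, 532 and 93.1 CPM in CaPS and 511, 675 and 703 CPM in mCaPS. Library 3 of CaPS thus held the highest neuron sum and the lowest cardiac sum of these 6, and their part in the result was not tested. Cbx7 was at 37.3, 93.1 and 55.8 CPM in CaPS and 9.03, 10.5 and 11.2 CPM in mCaPS (2.6 ± 0.56, edgeR adjusted p = 0.00636). Its part was not tested either.

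**Figure D5:**
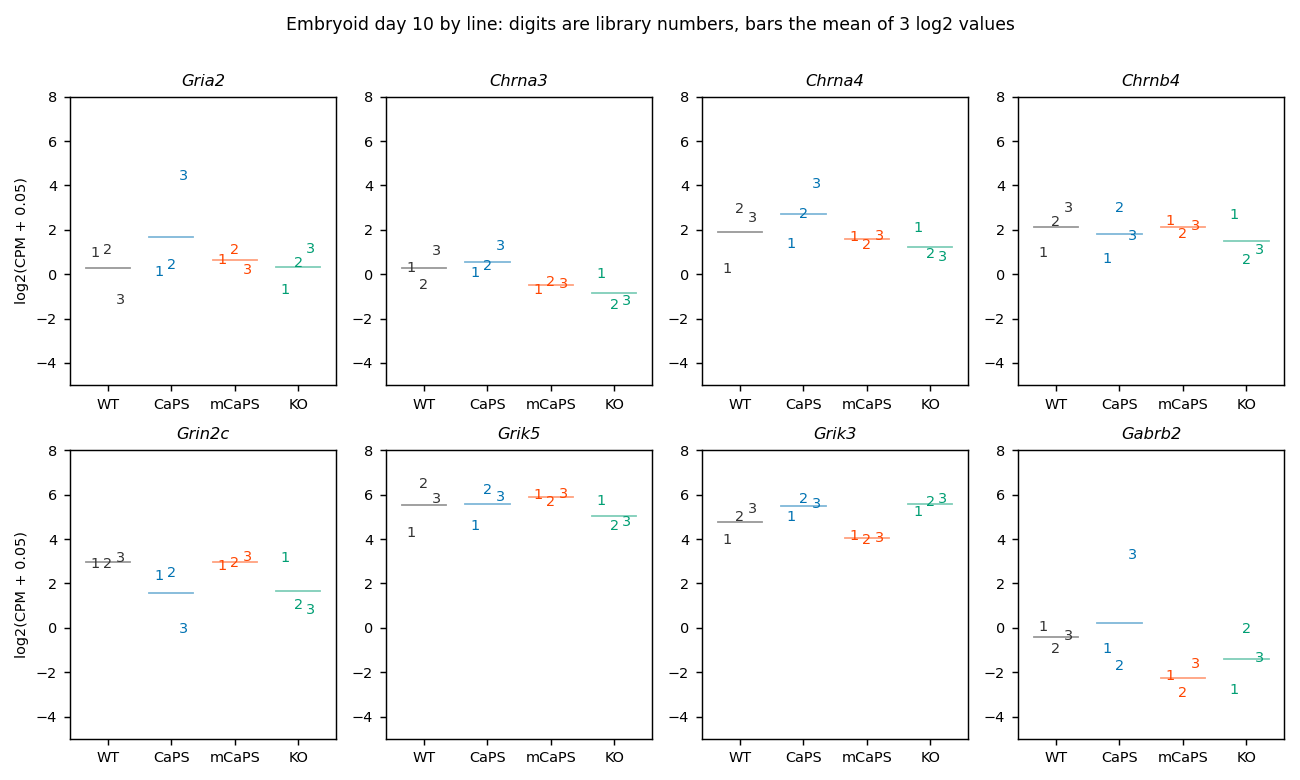
Level of 8 members in each embryoid day 10 library as log2(CPM + 0.05), by line, where digits are library numbers and bars the mean of 3 log2 values. CaPS library 3 stands above all others for Gria2 and Gabrb2 and below the other WT, CaPS and mCaPS libraries for Grin2c, and the lines overlap for Chrnb4 and Grik5.

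The CaPS-R libraries were deposited in separate tables of fewer genes, with 57 of the 64 members, so library set and line cannot be told apart in any comparison with another line. Over the shared genes, 44 members were tested in the neural series and 48 in the embryoid series. From neural day 0 to day 8, 20 rose and 0 fell (27.4% and 23.3% of 15334 genes; 0 lower also at an unadjusted p below 0.05, against 56.6% of all genes either way), with a median log2 change of 1.86 against 0.09 over all genes. The count was 13 without CaPS-R day 8 library 1. Gria1 was at 0 on day 0 and 8.11, 4.73 and 0.813 CPM on day 8 (at least 66.9-fold higher, edgeR adjusted p = 1.79e-05). Chrna3 had 0, 0.573 and 0 CPM and then 19.9, 16.8 and 33.0 CPM (6.91 ± 1.20, edgeR adjusted p = 1.07e-05), and Glra1 0.133, 0.573 and 0.264 CPM and then 22.0, 23.2 and 10.4 CPM (5.87 ± 1.10, edgeR adjusted p = 3.23e-05). All 3 day 8 libraries were above all day 0 libraries in these genes. The neuron marker sum of CaPS-R on day 8 was 1820, 1560 and 1180 CPM.

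Against CaPS on neural day 8, 3 members were lower in CaPS-R (10.3% of all genes) and 0 higher (8.83%; 3 at an unadjusted p below 0.05, against 32.0% of all genes either way). Grin2c had 12.6, 2.69 and 1.08 CPM in CaPS-R (-3.31 ± 1.13, edgeR adjusted p = 0.0359), overlapping CaPS, whose library 1 was low. Gabra4 had 0.162, 0 and 0.0677 CPM (-4.62 ± 1.09, edgeR adjusted p = 0.00213), and Gabra3 was lower by -1.97 ± 0.57 (edgeR adjusted p = 0.0132). The count was 6 without CaPS library 1 and 1 without CaPS library 2 or 3 or CaPS-R library 2. In the embryoid series, 6 CaPS-R members rose from day 0 to day 10 (11.4% of 15379 genes) and 0 fell (8.74%; 2 lower at an unadjusted p below 0.05, against 33.6% of all genes either way), among them Grik2 (4.53 ± 1.11, edgeR adjusted p = 0.00316), Gabrb2 (3.98 ± 1.21, edgeR adjusted p = 0.0163) and Grin2c (3.27 ± 0.99, edgeR adjusted p = 0.0165). Grik1 (at least 18.0-fold by the group mean), Chrna10 (at least 9.37-fold by the group mean) and Grik5 (1.51 ± 0.51, edgeR adjusted p = 0.0336) were the others. On day 10 Grik1 was at 0, 2.71 and 0.0968 CPM and Chrna10 at 0.209, 1.22 and 0.0242 CPM, so library 2 carried both means. The count was 2 without CaPS-R day 0 library 1 or day 10 library 2. Against CaPS on day 10, 5 were lower (7.95% of all genes): Gria2 (-4.71 ± 1.20, edgeR adjusted p = 0.00742), Chrna3 (-4.58), Grm8 (-3.52), Gabra3 (-2.77) and Chrna4 (-2.18). Gria2 in CaPS-R was at 0.349, 0 and 0.484 CPM, under all 3 CaPS libraries, and the count of 5 was 2 without CaPS library 3 or CaPS-R library 1 or 2 and 8 without CaPS library 2.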

How the data were processed

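The authors deposited raw read counts per gene. Per the submitters' processing notes, cutadapt 1.14, STAR 2.7.0, featureCounts 1.6.3, HOMER 4.10.4 and edgeR were used with build mm10. Their roles in making the tables are not given in the sources used here. Gene names turned into dates (23 in the embryoid table, 22 in each CaPS-R table), a partial row of each CaPS-R table and 9 columns that matched no library were left out. Fits used edgeR 4.0.16 under R 4.3.3 (TMM scaling, filterByExpr, robust quasi-likelihood F tests, two-sided), 36 libraries in 12 groups per series, 45 with CaPS-R and 72 for the interaction. Adjusted p-values are by Benjamini and Hochberg over all genes tested, with calls below 0.05. The SE is the log2 change over the square root of F. A group at 0 was set to 3 counts over its libraries, and such bounds leave out the spread between libraries. Since most low counts were even numbers, 3 counts can stand for fewer fragments. The bounds may thus not cover all counting error, and the folds given as at least may be too large. The fit was tested on simulated data.

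The members, pathway lists and markers were chosen with earlier results of these data known. Genes named in full were the 3 highest of each family in WT neural day 8, the largest called rises (8) and falls (6) over time, up to 6 called members a direction between lines, and up to 3 genes a direction of each pathway list. Chrna7, Chrnb2, Grik2, Grik4, Grik5, Gria1, Glrb, Grin2b and Grin1 were described further as members of their families. Some genes that enter the counts are not reported here.

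Library numbers recur across groups, and the labels do not say that they mark a batch. Deviations from the group means correlated above 0.1 for all 3 same-numbered pairs in CaPS against WT on every day of both series (0.81, 0.78 and 0.82 on neural day 0), in mCaPS against KO on neural days 6 (0.19, 0.24 and 0.20) and 8 (0.50, 0.42 and 0.65), in WT neural day 8 against day 6 and in the 3 WT embryoid comparisons, so pairing there comes from the correlations alone. Alternatives were DESeq2 1.42.0 (size factors, and its Wald test), no low-count filter, fits of 2 groups with or without the library number as a block, counts without Rn45s, and leaving out libraries.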

Additional observations from a re-analysis of the deposited data

Results flagged for a closer look

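The interaction term found 6 members whose change from day 0 to day 6 in WT cells differed between the neural and the embryoid series. On the log2 scale, neural minus embryoid, these differences included -6.87 for Grm6, -3.90 for Chrna9, -3.18 for Grin2b, -2.94 for Grik3 and 2.20 for Glrb (edgeR adjusted p = 0.000391, 0.0111, 0.0315, 0.000136 and 0.0242). The 2 series are separate sets of libraries, so a difference between the sets and one between the differentiation methods cannot be told apart.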

How the results depend on the processing

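Values below are numbers of members called, given without the share of all genes called under each alternative. For the WT neural comparisons of day 6 and day 8 with day 0, every alternative that was run stayed within 1.5 times of 14 and 24. With the DESeq2 Wald test the counts became 1 on days 6 and 8 for CaPS against WT in the neural series, 5 (day 0) and 11 (day 6) for mCaPS against WT, 6 for KO against WT on day 0, 1 (day 0) and 7 (day 8) for CaPS against mCaPS, 12 for mCaPS against KO on day 8 and 2 for CaPS against KO. In the embryoid series it gave 2 for mCaPS against WT on day 0, 10 for CaPS-R day 10 against day 0 and 8 for CaPS-R against CaPS. Without the low-count filter, mCaPS against WT and against KO on neural day 6 had 1 and 2.

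Fitting only the 2 groups compared gave 4, 9 and 11 for mCaPS against WT on neural days 0, 6 and 8, 3 for KO against WT on day 0, 9 (day 6) and 1 (day 8) for mCaPS against KO, 0 for CaPS against mCaPS on neural day 8 and embryoid day 10 and for CaPS against KO, and 5, 9 and 9 for WT embryoid day 6 against 0, 10 against 6 and 10 against 0. With the library number as a replicate block in that fit, mCaPS against WT had 5 and 7 on neural days 0 and 6, KO against WT 0 on day 0, mCaPS against KO 12 on day 6, and CaPS against mCaPS (neural day 8, embryoid day 10) and CaPS against KO 0. Among the comparisons whose numbers pair the samples by their correlations, the block moved mCaPS against KO on day 6 from 4 to 12 (3 shared) and left the others within 1.5 times of the fit over all groups (WT neural day 8 against day 6 had 16 in place of 11, of which 10 were shared). Against the 2-group fit without the block, it moved the 3 WT embryoid counts from 5 to 11, 9 to 17 and 9 to 15 and mCaPS against KO on day 8 from 1 to 8. In the comparisons not paired this way the samples share only a number. Without the 6 embryoid libraries numbered 1, day 10 against day 6 in WT had 2, mCaPS and KO against WT on day 10 had 1 each, and CaPS against mCaPS had 1 on day 6 and 10 on day 10.

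Leaving out 1 library at a time gave these ranges. In the neural series they were 5 to 10 for WT day 8 against day 6, 0 to 1 and 0 to 3 for CaPS against WT on days 6 and 8, 0 to 2, 0 to 4 and 9 to 17 for mCaPS against WT on days 0, 6 and 8, 0 to 4 for KO against WT on day 0, 0 to 7 for CaPS against mCaPS on day 8, 0 to 3 and 2 to 12 for mCaPS against KO on days 6 and 8, and 0 to 1 for CaPS against KO. In the embryoid series they were 4 to 8, 7 to 10 and 9 to 13 for WT day 6 against 0, 10 against 6 and 10 against 0, 0 to 1 for CaPS against WT on day 10, mCaPS against WT on day 0 and KO against WT on day 6, and 1 to 8 for CaPS against mCaPS on day 10. For CaPS-R they were 13 to 18 (neural day 8 against day 0), 1 to 6 (against CaPS, neural), 2 to 7 (embryoid day 10 against day 0) and 2 to 8 (against CaPS, embryoid), and 3 to 6 for the interaction. Among the genes named, the only sign that turned was that of Grin2c in CaPS against mCaPS on neural day 8, from -0.43 to 0.14 without CaPS library 1 (edgeR adjusted p = 0.975; -1.53 was the lowest value, without CaPS library 2). The cause of these changes was not tested. The block, 2-group and Rn45s alternatives were not run for CaPS-R and the interaction. In the neural series 24 members had under 1 CPM in every group, where few counts limit what could be called.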
